A study of Mus musculus with 54 samples.

Results

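The integrated stress response genes described here are 10 genes of the deposited count table, out of 55401. They are Atf4, Atf3, Ddit3, Trib3, Chac1, Sesn2, Asns, Psat1, Slc7a11 and Inhbe, found by symbol through the GENCODE M21 annotation. The genes were chosen by their measured values in these data, mainly the fold changes of the EZH2-WT line against its heterozygous background, so that contrast is described here with no test. All 10 passed the filter on low counts in both states. Inhbe in both states and Slc7a11 in mESC passed it only through the lines in which they are high, since their mean lay below the filter (0.52 CPM in mESC, 0.529 CPM in ATRA) in 4 of 8 lines for Inhbe and 5 for Slc7a11 in mESC and in 6 for Inhbe in ATRA. A lower level of these genes in a variant line is partly fixed by that filter, so counts are also given over the other 8 members.

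RNA was sequenced from poly(A)-selected mRNA of mouse embryonic stem cells, in 16 groups of 3 libraries. Ezh2 encodes the histone methyltransferase of the Polycomb complex PRC2, and variants of human EZH2 cause Weaver syndrome, an overgrowth disorder. The 8 lines are A677T, R679C, K634E, K563E, A733T, WT, het and parental. Per the series' design text, the lines with an added EZH2 protein carry 1 floxed and 1 deleted Ezh2 allele (Ezh2fl/∆), the genotype the het line represents, and express EZH2-WT or 1 EZH2 variant on top of it. The WT line therefore carries the deleted allele and added EZH2, while the parental line is labelled only as parental, with flfl in its library names. The labels do not name the variant linked to growth restriction. From general knowledge of the study, A733T was taken to be that variant and treated on its own, and A677T, R679C, K634E and K563E form the mean of 4 variants. Each line was sampled undifferentiated (mESC) and after a short differentiation with all-trans retinoic acid (ATRA) and without 2i and LIF. A change with ATRA is thus also a change with withdrawal of 2i and LIF. The sources used here do not say how the EZH2 proteins were introduced or whether a line is a single clone. Replicates are not labelled as separate cultures, so the spread behind the p-values may be technical.

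The integrated stress response is a shared answer of cells to amino acid shortage, unfolded protein in the endoplasmic reticulum, double-stranded RNA, heme shortage and mitochondrial stress. A kinase for each kind of stress phosphorylates the translation factor eIF2, which lowers protein synthesis in general and raises translation of Atf4 mRNA through its upstream reading frames. ATF4 then switches on genes for amino acid synthesis, amino acid import and tRNA charging, and under longer stress the factors CHOP (Ddit3) and ATF3. Because ATF4 is set largely at translation, levels of Atf4 mRNA do not measure ATF4 protein, and no protein was measured.

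C/EBP-ATF response elements are short DNA elements bound by ATF4 with C/EBP partners, and the letters TGATGNAA on either strand were searched in promoter windows of 250 bases before to 50 bases after the gene start (RefSeq, GRCm38.p6). These letters were present in 6 of the 10 members, namely Atf3, Chac1, Trib3, Slc7a11, Asns and Inhbe, or 6 of their 11 windows, against 1304 of all 32851 windows (3.97%). The windows of Atf4, Ddit3, Sesn2 and Psat1 did not hold these letters, which says nothing of other positions or of binding. The windows of Chac1, Atf3, Slc7a11 and Asns are shown because these genes carry the largest changes or the highest level below. The sequences run 5′ to 3′ on the gene's strand, with the matched letters in capitals. Chac1 lies at chr2:119350992-119351291 on the plus strand, with the match 193 bases before the start. Atf3 lies at chr1:191183284-191183583 on the minus strand, with the match 110 bases before the start.
Chac1: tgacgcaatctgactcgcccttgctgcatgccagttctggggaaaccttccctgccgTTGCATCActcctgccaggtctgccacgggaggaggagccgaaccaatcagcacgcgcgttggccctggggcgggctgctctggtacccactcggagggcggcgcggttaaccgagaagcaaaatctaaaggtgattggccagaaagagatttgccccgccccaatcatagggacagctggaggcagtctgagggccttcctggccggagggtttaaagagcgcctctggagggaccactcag
Atf3: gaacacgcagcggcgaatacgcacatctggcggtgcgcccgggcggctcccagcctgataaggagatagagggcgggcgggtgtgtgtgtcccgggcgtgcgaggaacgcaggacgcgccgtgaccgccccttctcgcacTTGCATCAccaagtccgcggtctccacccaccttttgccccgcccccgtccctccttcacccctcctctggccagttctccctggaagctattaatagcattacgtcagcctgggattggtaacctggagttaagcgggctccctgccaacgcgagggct
Slc7a11 lies at chr3:50443564-50443863 on the minus strand, with matches 66 and 47 bases before the start. Asns lies at chr6:7693160-7693459 on the minus strand, with the match 23 bases before the start.
Slc7a11: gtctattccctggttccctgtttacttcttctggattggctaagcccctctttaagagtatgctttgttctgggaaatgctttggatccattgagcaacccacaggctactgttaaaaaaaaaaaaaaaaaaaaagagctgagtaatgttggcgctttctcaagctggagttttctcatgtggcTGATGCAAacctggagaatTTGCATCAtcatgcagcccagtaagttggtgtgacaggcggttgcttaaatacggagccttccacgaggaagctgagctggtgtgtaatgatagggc
Asns: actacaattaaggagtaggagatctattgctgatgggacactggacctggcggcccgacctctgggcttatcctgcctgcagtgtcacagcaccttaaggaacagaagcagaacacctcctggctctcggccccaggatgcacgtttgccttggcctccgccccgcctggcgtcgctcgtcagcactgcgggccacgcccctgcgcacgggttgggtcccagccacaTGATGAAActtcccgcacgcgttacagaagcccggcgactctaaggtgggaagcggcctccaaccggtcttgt
A match is a description of these letters and not a measured binding site.

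Levels are given as counts per 1e+06 library counts after TMM normalisation (CPM). Total counts per library ran between 15361598 and 29614420 in mESC and between 15612700 and 31338825 in ATRA. Per kilobase of exon, the median over the 48 libraries was highest for Asns (264.4 CPM per kb) and Atf4 (204.4), followed by Psat1 (110.7), Sesn2 (43.3), Trib3 (14.2), Chac1 (7.46), Ddit3 (4.86) and Atf3 (1.15). Slc7a11 (0.154) and Inhbe (0.0832) were the lowest. Their counts ran between 0 and 277 for Slc7a11 and between 1 and 67 for Inhbe, so their values in single libraries are imprecise. The gene span of Ddit3 (chr10:127290774-127296288, plus strand, GRCm38) overlaps that of Mars, the methionyl-tRNA synthetase gene, on the opposite strand. Mars reached 10833 counts in a library, and the counting is not stated to use strand, so Ddit3 values are uncertain to that extent. Other genes that overlap a member held at most 24 counts in a library.

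Chac1, which encodes an enzyme that degrades glutathione, correlated most closely with the remaining members. In mESC, the 12 libraries of the 4 variants ran between 2.43 and 13.4 CPM with a median of 4.45 CPM, and A733T had 26.1, 29.6 and 37.9 CPM. WT had 15.8, 17.6 and 22.9 CPM, het 47.5, 40.3 and 47.2 CPM, and parental 49.9, 43.8 and 44.7 CPM. All libraries of the 4 variants lay below those of WT, all WT libraries below those of A733T, and all A733T libraries below those of het and parental, which overlapped. Among the 4 variants, K634E (11.4 to 13.4 CPM) lay above A677T, R679C and K563E (2.43 to 5.39 CPM). After ATRA, the 4 variants ran between 6.39 and 13.7 CPM with a median of 8.46 CPM, and A733T had 58.3, 45.8 and 33.3 CPM. WT had 8.30, 8.67 and 8.01 CPM, het 84.2, 78.5 and 68.6 CPM, and parental 95.7, 79.3 and 68.8 CPM. Here the WT libraries lay within the range of the 4 variants, and A733T lay between them and the het and parental lines.

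Atf3, a stress-induced transcription factor gene, and Ddit3, which encodes CHOP, were lowest in the 4 variants or in both these and WT. Atf3 in mESC ran between 0.476 and 2.58 CPM in the 4 variants (median 1.18), and A733T had 9.38, 9.27 and 9.12 CPM. WT had 3.24, 3.48 and 4.32 CPM, het 8.97, 9.75 and 8.41 CPM, and parental 10.2, 9.17 and 11.3 CPM. A733T thus overlapped het and parental in mESC, while WT stood between them and the 4 variants. After ATRA, Atf3 ran between 1.10 and 2.48 CPM in the 4 variants (median 1.98), with 10.04, 9.08 and 7.45 CPM in A733T. WT had 1.86, 2.77 and 2.06 CPM, het 8.64, 10.5 and 7.85 CPM, and parental 13.2, 12.9 and 12.8 CPM. WT overlapped the 4 variants, A733T overlapped het, and parental stood above all of them. Ddit3 averaged 13.8 ± 1.02 CPM in A733T, 7.91 ± 1.32 CPM in WT, 18.0 ± 1.79 CPM in het and 24.5 ± 1.94 CPM in parental cells after ATRA (SD, n = 3 each), while the 4 variants ran between 5.21 and 8.57 CPM.

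Trib3, a pseudokinase gene that is a target of ATF4 and CHOP, ran between 15.7 and 33.2 CPM in the 4 variants in mESC (median 21.8), and A733T had 49.6, 53.8 and 59.6 CPM. WT had 41.7, 42.6 and 47.2 CPM, het 73.3, 78.2 and 81.5 CPM, and parental 87.4, 71.9 and 73.6 CPM. The order was that of Chac1, with het and parental overlapping at the top. Asns, which encodes asparagine synthetase, ran between 643 and 906 CPM in the 4 variants in mESC (median 686), with 1494, 1401 and 1448 CPM in A733T. WT had 1002, 1019 and 994 CPM, het 1362, 1316 and 1267 CPM, and parental 1374, 1330 and 1361 CPM. For Asns the A733T libraries lay above those of all other lines in mESC.

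Psat1, an enzyme gene of serine synthesis, ran between 381 and 523 CPM in the 4 variants in mESC and averaged 660.6 ± 14.8 CPM in A733T, 542 ± 5.83 CPM in WT, 760.3 ± 21.8 CPM in het and 719.7 ± 16.02 CPM in parental cells (SD, n = 3 each). Atf4 moved least in size, with 372 to 470 CPM in the 4 variants and 529.7 ± 7.08 CPM in A733T, 500.1 ± 11.4 CPM in WT, 559 ± 23.9 CPM in het and 551 ± 27.8 CPM in parental cells in mESC. Sesn2, a sestrin gene whose product restrains mTORC1 on leucine shortage, ran between 124 and 162 CPM in the 4 variants in mESC, overlapping A733T (151 to 156 CPM) and WT (149 to 168 CPM) and below het (187 to 196 CPM) and parental (197 to 228 CPM). Slc7a11, the cystine importer gene, ran between 0 and 0.439 CPM in the 4 variants in mESC, with 0.395 to 1.09 CPM in A733T, 0.203 to 0.387 CPM in WT, 1.70 to 2.17 CPM in het and 1.12 to 2.31 CPM in parental cells. Inhbe, which encodes an activin subunit, ran between 0.0483 and 0.527 CPM in the 4 variants in mESC, with 0.444 to 1.21 CPM in A733T, 0.477 to 0.810 CPM in WT, 2.07 to 2.91 CPM in het and 2.22 to 2.45 CPM in parental cells.

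**Figure D1:**
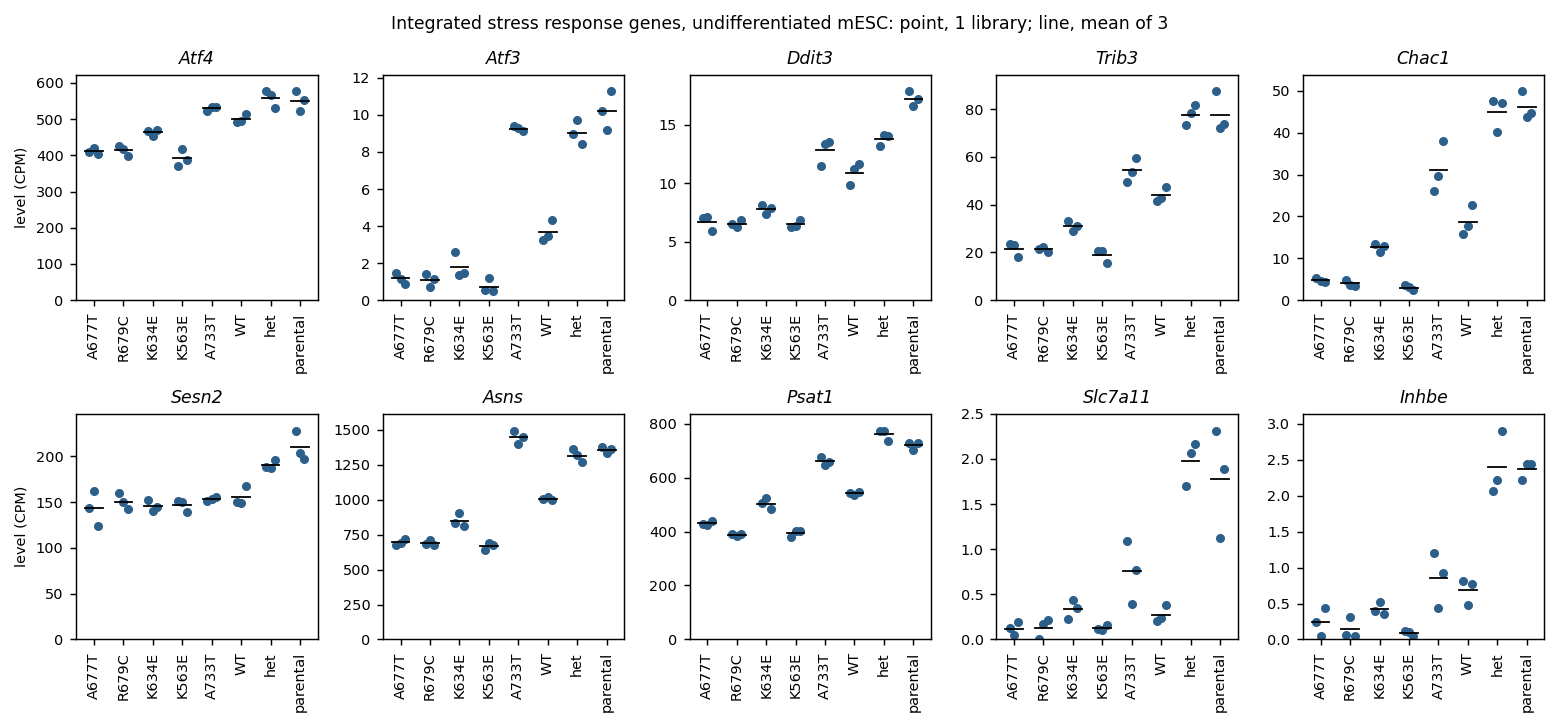
Levels in CPM (linear axes from 0) of the 10 genes in undifferentiated mESC; each point is 1 library, each line the mean of 3, and the lines of cells run along the x axis. Chac1 lies at 2.43 to 13.4 CPM in the 4 variants and at 15.8 to 22.9 CPM in WT, with A733T, het and parental above.

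**Figure D2:**
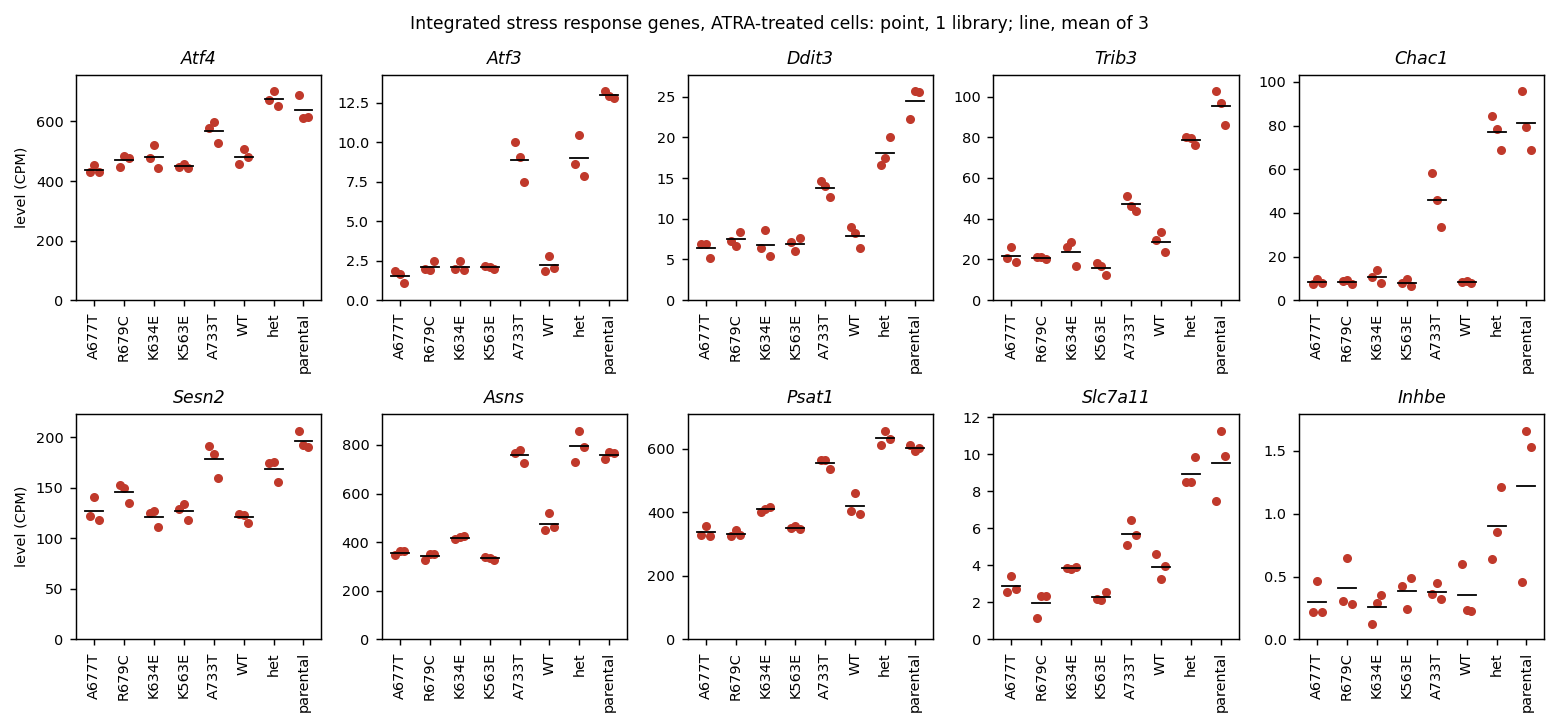
The same levels in CPM after ATRA; points are libraries and lines are means of 3. WT overlaps the 4 variants for Chac1 (8.01 to 8.67 CPM in WT), Atf3 and Ddit3, while A733T lies well above them.

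Across the 16 groups, with log2 levels centred within each state, each member's values correlated with the mean of the remaining members. Pearson's r ran between 0.827 for Sesn2 and 0.980 for Chac1 over 16 groups. The groups share lines and a normalisation, so r is a description.

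The contrast in which the genes were proposed is WT against het, and its values are a description. In mESC the log2 difference was -1.27 for Chac1, -1.30 for Atf3, -0.83 for Trib3, -0.34 for Ddit3 and -0.16 for Atf4. It was -0.39 for Asns, -0.49 for Psat1, -0.29 for Sesn2, -2.83 for Slc7a11 and -1.81 for Inhbe. Over all genes tested, 6.84% were called lower in WT at an adjusted p under 0.05 in edgeR's quasi-likelihood test with Benjamini-Hochberg adjustment, the rule for a call throughout. After ATRA the log2 difference was -3.21 for Chac1, -1.99 for Atf3, -1.44 for Trib3, -1.19 for Ddit3 and -0.48 for Atf4, where 8.74% of all genes were called lower. The comparisons below that hold WT or het libraries share them with this contrast. Those of the variants or A733T with parental or with each other share none.

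The het line, with 1 Ezh2 allele deleted and no EZH2 added, differed little from parental cells in these genes in mESC. After ATRA some members were lower, by calls that depended on the setting. In het against parental mESC, 0 of the 10 members were called by edgeR, against 3.44% of all genes, while 1 member had an unadjusted p under 0.05 and DESeq2 called 1. That member is Ddit3, with 13.2, 14.1 and 14.1 CPM in het and 17.9, 16.6 and 17.2 CPM in parental cells (log2 fold change -0.33 ± 0.09, SE, adjusted p = 0.0506 in edgeR). Chac1 (-0.04 ± 0.12), Trib3 (0.00 ± 0.10) and Asns (-0.05 ± 0.05) had log2 fold changes within their SE or close to it. After ATRA, Atf3 fell in het (-0.53 ± 0.14, adjusted p = 0.0148 in edgeR), as did Ddit3 (-0.45 ± 0.13, adjusted p = 0.0320). These 2 calls stand against 6.25% of all genes, and neither is firm. Without 1 library the log2 fold change of Atf3 lost its call when het replicate 1 (-0.50), het replicate 3 (-0.45) or parental replicate 1 (-0.51) was left out, and that of Ddit3 when het replicate 1 (-0.38) or 2 (-0.43) or parental replicate 2 (-0.41) or 3 (-0.41) was left out. Trib3 and Sesn2, uncalled in the reported fit, were called lower in het after ATRA with GC correction (-0.254 and -0.195). The same held with a replicate block and in a fit of these groups alone. All het libraries lay below the parental ones after ATRA for Atf3, Ddit3, Trib3 and Sesn2, 4 of 10 against 13.8% of all genes. The change with ATRA did not differ between het and parental for any member by edgeR, with 0 members called, 0 with an unadjusted p under 0.05 and 0 by DESeq2, against 0.73% of all genes.

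Against parental cells, the mean of the 4 variants was lower for all 10 members in both states, in a comparison that uses no library of the contrast above. In mESC, 10 of 10 were called lower, against 28.8% of all genes in that direction, and 8 of the 8 members other than Slc7a11 and Inhbe. The median log2 fold change was -1.09 over these 8, against -0.004 over all genes tested. Fold changes of the 4 variants are taken from the mean of the log2 levels of the 4 lines, so they need not equal the ratio of the CPM printed. Atf3 averaged 1.20 CPM in the 4 variants and 10.2 CPM in parental cells, an 8.84-fold lower level (adjusted p = 1.96e-15 in edgeR). Chac1 averaged 6.10 and 46.1 CPM, in the 4 variants and in parental cells, 8.76-fold lower (adjusted p = 3.83e-19). The smallest change was that of Atf4 (-0.36 ± 0.04, SE, adjusted p = 2.57e-08 in edgeR). All 12 libraries of the 4 variants lay below the 3 parental ones for 10 of 10 members, against 19.2% of all genes. After ATRA, 10 of 10 were again called lower, against 30.1% of all genes, and 8 of the same 8, whose median log2 fold change was -1.45. The libraries did not overlap for 9 of 10 (17.6% of all genes), Inhbe being the exception. Chac1 fell to 8.90 CPM in the 4 variants, against 81.3 CPM in parental cells, 9.16-fold lower (adjusted p = 1.22e-14).

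Against the WT line, which differs from the variant lines only in the EZH2 protein added, as far as the labels say, the 4 variants had lower levels of most members in mESC. In that state 8 of 10 were called lower, against 22.9% of all genes, and 7 of the 8 other than Slc7a11 and Inhbe. Chac1 had 28.3% of the WT level (log2 fold change -1.82 ± 0.11, SE, adjusted p = 1.42e-12 in edgeR) and Atf3 31.7% (-1.66 ± 0.18, adjusted p = 7.12e-08). Trib3 (-0.91 ± 0.08), Inhbe (-1.71 ± 0.39), Ddit3 (-0.64 ± 0.08), Asns (-0.44 ± 0.04), Psat1 (-0.31 ± 0.04) and Atf4 (-0.22 ± 0.04) also fell. The libraries did not overlap for 7 of 10 (13% of all genes). Libraries differed in how counts ran with GC content, and correction for it left Atf4 at -0.02 (adjusted p = 0.795) and Sesn2, uncalled at -0.05 ± 0.06 without it, at 0.26 (adjusted p = 1.32e-06), so that neither has a settled direction in this comparison. The Spearman correlation of a library's deviations with GC was 0.503 to 0.736 in the WT libraries and -0.737 to 0.097 in those of the 4 variants in mESC.

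Singly, A677T, R679C and K563E each had 8 of 10 members called lower than in WT in mESC, against 22.2%, 12.6% and 17.8% of all genes, in that order, and 7 of the 8 other than Slc7a11 and Inhbe. With GC correction the Atf4 call ended in all of these lines, at 0.002 in A677T, -0.09 in R679C (adjusted p = 0.311 in edgeR) and -0.12 in K563E (adjusted p = 0.11). The Inhbe call in A677T was lost without A677T replicate 2 (-0.97) or WT replicate 1 (-1.36) or 3 (-1.43), and that in R679C without R679C replicate 3 (-1.60). K634E had 5 called lower (14.8% of all genes). The log2 fold change of Chac1 was -1.93 ± 0.16 in A677T, -2.20 ± 0.16 in R679C, -0.54 ± 0.14 in K634E and -2.61 ± 0.17 in K563E. That of Atf3 was -1.60 ± 0.25, -1.76 ± 0.25, -1.01 ± 0.23 and -2.26 ± 0.28 in the same order of lines. The difference between K634E and the other lines was not tested, and the Chac1 call in K634E was lost without WT replicate 3 (-0.39, adjusted p = 0.0647 in edgeR) and with GC correction (-0.24, adjusted p = 0.175). The Trib3 call in K634E (-0.46 ± 0.10) also ended with GC correction (-0.12, adjusted p = 0.25), while Psat1, uncalled at -0.07, was then called lower (-0.17, adjusted p = 0.004).

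After ATRA, 4 of 10 members were called lower in the mean of the 4 variants than in WT, against 12.1% of all genes. These were Asns (-0.40 ± 0.05, SE, adjusted p = 4.57e-07 in edgeR), Psat1 (-0.23 ± 0.04, adjusted p = 0.000404), Trib3 (-0.50 ± 0.12, adjusted p = 0.00375) and Slc7a11 (-0.54 ± 0.15, adjusted p = 0.0118). Chac1 was at 0.10 ± 0.17 and Atf3 at -0.21 ± 0.15, without a call. Only the libraries of Asns did not overlap (1 of 10, against 4.37% of all genes), with 328 to 424 CPM in the 4 variants and 449, 520 and 462 CPM in WT. The Trib3 call was lost without WT replicate 2 (-0.38, adjusted p = 0.0764) and that of Slc7a11 without WT replicate 1 (-0.42, adjusted p = 0.122). With GC correction Sesn2, at 0.11 ± 0.06 without it, was called higher (0.23, adjusted p = 7.08e-05). By line, A677T had 2 members called lower (11.1% of all genes), R679C 3 (5.45%), K634E 1 (7.65%) and K563E 4 (11.9%). The call in K634E, Asns, was lost in several settings, such as without WT replicate 2 (-0.12). In R679C Sesn2 was called higher (4.87% of all genes), a call lost without R679C replicate 1 (0.24). Slc7a11 averaged 3.86 CPM in K634E and 3.92 CPM in WT.

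A733T differed from WT in the other direction. In mESC, 6 of 10 members were called higher, against 10.7% of all genes, and 0 lower, against 8.64% of all genes, also 0 lower by DESeq2 and at an unadjusted p under 0.05. Over the 8 other than Slc7a11 and Inhbe, 5 were called higher. The members were chosen mainly for lower levels in WT than in het. Higher levels against the same WT libraries are thus partly built in, in both states, and the share of all genes is not an equal reference. Atf3 was 2.56-fold higher (log2 fold change 1.36 ± 0.19, SE, adjusted p = 1.11e-05 in edgeR), Chac1 1.70-fold (0.76 ± 0.13, adjusted p = 0.000156) and Asns 1.46-fold (0.55 ± 0.05, adjusted p = 3.56e-08). Psat1 also rose (0.31 ± 0.05). The calls of Trib3 (0.34 ± 0.10) and Slc7a11 (1.45 ± 0.47) were lost with several single libraries left out, for Trib3 A733T replicate 3 (0.25) and WT replicates 1 (0.31) and 2 (0.33), and for Slc7a11 A733T replicates 1 (1.10) and 3 (1.40) and WT replicates 1 (1.28) and 2 (1.36). Libraries of A733T lay above those of WT for 7 of 10 members, against 19.6% of all genes. Atf4, Ddit3 and Sesn2, uncalled here, were called higher with GC correction. Their values were then 0.19 (adjusted p = 0.0148 in edgeR), 0.30 (adjusted p = 0.0179) and 0.13 (adjusted p = 0.0424) in that order.

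After ATRA, 9 of 10 members were called higher in A733T than in WT, against 10.4% of all genes, and Inhbe was not called (0.17 ± 0.57). Over the 8 other than Slc7a11 and Inhbe, 8 were called higher, with the same limit from the choice of the genes. Chac1 averaged 45.8 CPM in A733T and 8.33 CPM in WT, 5.48-fold higher (adjusted p = 2.8e-08 in edgeR), and Atf3 was 3.91-fold higher (adjusted p = 2.22e-09). Ddit3 (0.80 ± 0.14), Trib3 (0.70 ± 0.15), Asns (0.67 ± 0.06), Sesn2 (0.56 ± 0.08) and Psat1 (0.40 ± 0.06) rose as well. The libraries did not overlap for 9 of 10 (20.5% of all genes). The call of Atf4 (0.24 ± 0.06) was lost without A733T replicate 2 (0.20) or WT replicate 1 (0.20), and that of Slc7a11 (0.56 ± 0.18) without A733T replicate 2 (0.46) or 3 (0.55) or WT replicate 2 (0.43) or 3 (0.57).

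The comparison of A733T with the mean of the 4 variants was added after the values had been seen, and it holds no WT or het library. In mESC, 9 of 10 members were called higher, against 26.8% of all genes, and 7 of the 8 other than Slc7a11 and Inhbe, whose median log2 fold change was 0.94, against -0.002 over all genes. Atf3 averaged 9.26 CPM in A733T and 1.20 CPM in the 4 variants (3.02 ± 0.15, SE, adjusted p = 7.31e-15 in edgeR). Asns averaged 1448 CPM in A733T and 725 CPM in the 4 variants, 1.99-fold higher (adjusted p = 4.73e-17). Sesn2 was not called (0.05 ± 0.06) and stood at -0.13 with GC correction (adjusted p = 0.00416). After ATRA, 9 of 10 were called higher, against 27% of all genes, with Chac1 at 5.13-fold (adjusted p = 1e-11) and Sesn2 at 1.37-fold (adjusted p = 3.6e-07), while Inhbe was not called (0.17 ± 0.46). The libraries did not overlap for 7 of 10 in mESC (16.9% of all genes) and for 9 of 10 after ATRA (15.7%).

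A733T stayed below het for part of the group. In mESC, 6 of 10 were called lower, against 6.25% of all genes, or 4 of the 8 other than Slc7a11 and Inhbe. Among them were Trib3 (-0.49 ± 0.10, SE, adjusted p = 0.000827 in edgeR) and Sesn2 (-0.29 ± 0.07, adjusted p = 0.00653). Asns was called higher (0.16 ± 0.05, adjusted p = 0.0458), a call lost without A733T replicate 1 (0.14) or 3 (0.15) or het replicate 2 (0.16) or 3 (0.13). The lower calls of Chac1 (-0.50 ± 0.13) were lost without A733T replicate 1 (-0.39), of Psat1 (-0.18 ± 0.05) without A733T replicate 2 (-0.17) or het replicate 2 (-0.17), and of Slc7a11 (-1.39 ± 0.35) without A733T replicate 2 (-1.07). After ATRA 5 of 10 were called lower, against 6.58% of all genes, or 4 of the 8 other than Slc7a11 and Inhbe. Chac1 was at 59.3% of the het level (adjusted p = 0.00397 in edgeR) and Trib3 at 59.9% (adjusted p = 0.000714). The Chac1 call ended in a fit of A733T and het alone (-0.77, adjusted p = 0.0732). That of Atf4 (-0.25 ± 0.06) was lost without A733T replicate 3 (-0.21) or het replicate 2 (-0.22), that of Psat1 (-0.19 ± 0.06) without A733T replicate 2 (-0.20) or 3 (-0.17) or het replicate 2 (-0.16) or 3 (-0.19), and that of Slc7a11 (-0.63 ± 0.17) without A733T replicate 1 (-0.56). Atf3 had 8.86 CPM in A733T and 8.99 CPM in het after ATRA (-0.02 ± 0.14), without a call. The mean of the 4 variants was called lower than het for 10 of 10 members in both states, against 26.7% of all genes in mESC and 24.9% after ATRA. Over the 8 other than Slc7a11 and Inhbe, 8 were called lower in each state. Sesn2 in mESC was not called with GC correction (-0.07, adjusted p = 0.102 in edgeR). WT was called lower than parental for 9 of 10 members in mESC (11.1% of all genes) and 10 of 10 after ATRA (16.1%). Over the same 8 members, 7 were called lower in mESC and 8 after ATRA. These comparisons share het or WT libraries with the contrast by which the genes were chosen, so their direction is partly built in.

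**Figure D3:**
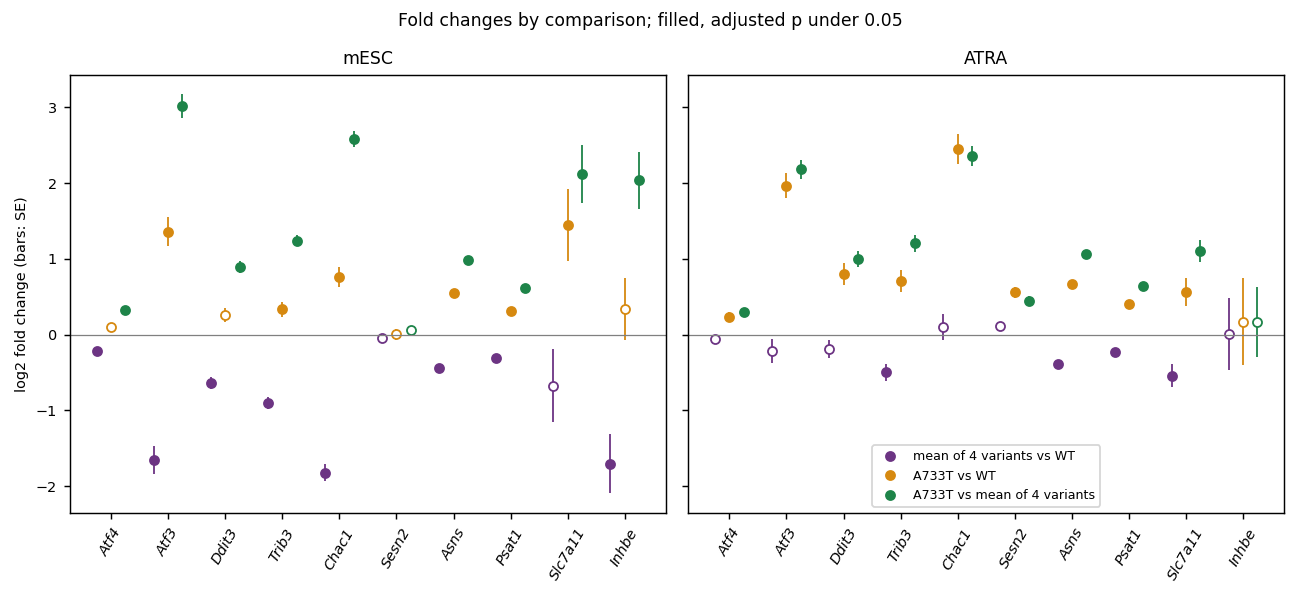
Log2 fold changes of the 10 genes (y axis) with SE bars, in mESC (left) and ATRA (right), for the mean of the 4 variants against WT, A733T against WT and A733T against the mean of the 4 variants; filled points had an adjusted p under 0.05. Chac1 stands at -1.82 for the 4 variants against WT in mESC and at 0.10, uncalled, after ATRA.

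With ATRA, Slc7a11, Asns and Psat1 moved the same way in all 8 lines. Slc7a11 rose in each, by 2.16 (het) to 4.61 (A677T) on the log2 scale, with 8.49, 8.47 and 9.87 CPM in het ATRA cells and 1.70, 2.07 and 2.17 CPM in het mESC. Its mESC counts were 2, 1 and 3 in A677T and 4, 5 and 7 in WT, so the size of these rises is imprecise. Asns fell in each, with log2 fold changes between -1.07 (WT) and -0.73 (het). Psat1 fell in each, with log2 fold changes between -0.37 (WT) and -0.17 (K563E), and the call in K563E was lost without its mESC replicate 3 (-0.13, adjusted p = 0.0547 in edgeR). A call with ATRA is common by itself, with 55.3% of all genes called in A677T, 57.5% in R679C, 57.4% in K634E, 57.8% in K563E, 55.8% in A733T, 59% in WT, 56.8% in het and 55.2% in parental cells.

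Chac1 did not move the same way in all lines. It rose with ATRA in parental cells (0.82 ± 0.16, SE, adjusted p = 3.15e-05 in edgeR), het (0.78 ± 0.16), A677T (0.82 ± 0.22), R679C (1.10 ± 0.22), K563E (1.44 ± 0.24) and A733T (0.55 ± 0.16). It fell in WT (-1.17 ± 0.19, adjusted p = 1.21e-06) and was not called in K634E (-0.22 ± 0.19). The call in A733T was lost without ATRA replicate 1 (0.35, adjusted p = 0.0873) and in a fit of its groups alone (0.57, adjusted p = 0.143). In WT, 7 members were called lower with ATRA and 1 higher, against 29.2% and 29.8% of all genes. The members were chosen mainly for low levels in WT, so part of this fall may be built in. The 7 were Asns (-1.07), Chac1 (-1.17), Atf3 (-0.70), Trib3 (-0.60), Ddit3 (-0.47), Psat1 (-0.37) and Sesn2 (-0.36), and Slc7a11 was the higher one (3.81). In parental cells 5 were called higher and 3 lower, against 28.6% and 26.5% of all genes, and in het 4 higher and 3 lower, against 29.4% and 27.4%. The parental count was 5 in place of 8 without ATRA replicate 1, where the calls of Atf4 (0.14), Inhbe (-0.58) and Trib3 (0.22) were lost.

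The difference between lines in the change with ATRA was tested directly. The members were chosen mainly for lower levels in WT than in het, and the log2 differences listed for Chac1 and Atf3 were larger after ATRA. A higher change in other lines than in WT may thus be partly built in. The shares of all genes below are therefore not equal references. Between the mean of the 4 variants and WT, 3 of 10 members differed, against 4.54% of all genes in that direction, and the change was higher in the 4 variants for each. Chac1 differed by 1.95 ± 0.22 on the log2 scale (SE, adjusted p = 4.45e-08 in edgeR), Atf3 by 1.48 ± 0.24 (adjusted p = 3.64e-05) and Ddit3 by 0.48 ± 0.14 (adjusted p = 0.0327). The Ddit3 call was lost when 1 of 6 libraries was left out, namely ATRA WT replicate 3 (0.35), mESC WT replicates 2 (0.46) and 3 (0.39), mESC K634E replicates 1 (0.44) and 3 (0.43) and mESC R679C replicate 3 (0.45). The count was 6 without ATRA WT replicate 2 and 5 without ATRA K634E replicate 3. Of all genes, 6.6% and 9.55% were then called in either direction, against 7.07% with all libraries. Between A733T and WT, Chac1 (1.72 ± 0.25, adjusted p = 1.26e-05) and Sesn2 (0.58 ± 0.11, adjusted p = 0.000691) differed, 2 of 10 against 1.76% of all genes.

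**Figure D4:**
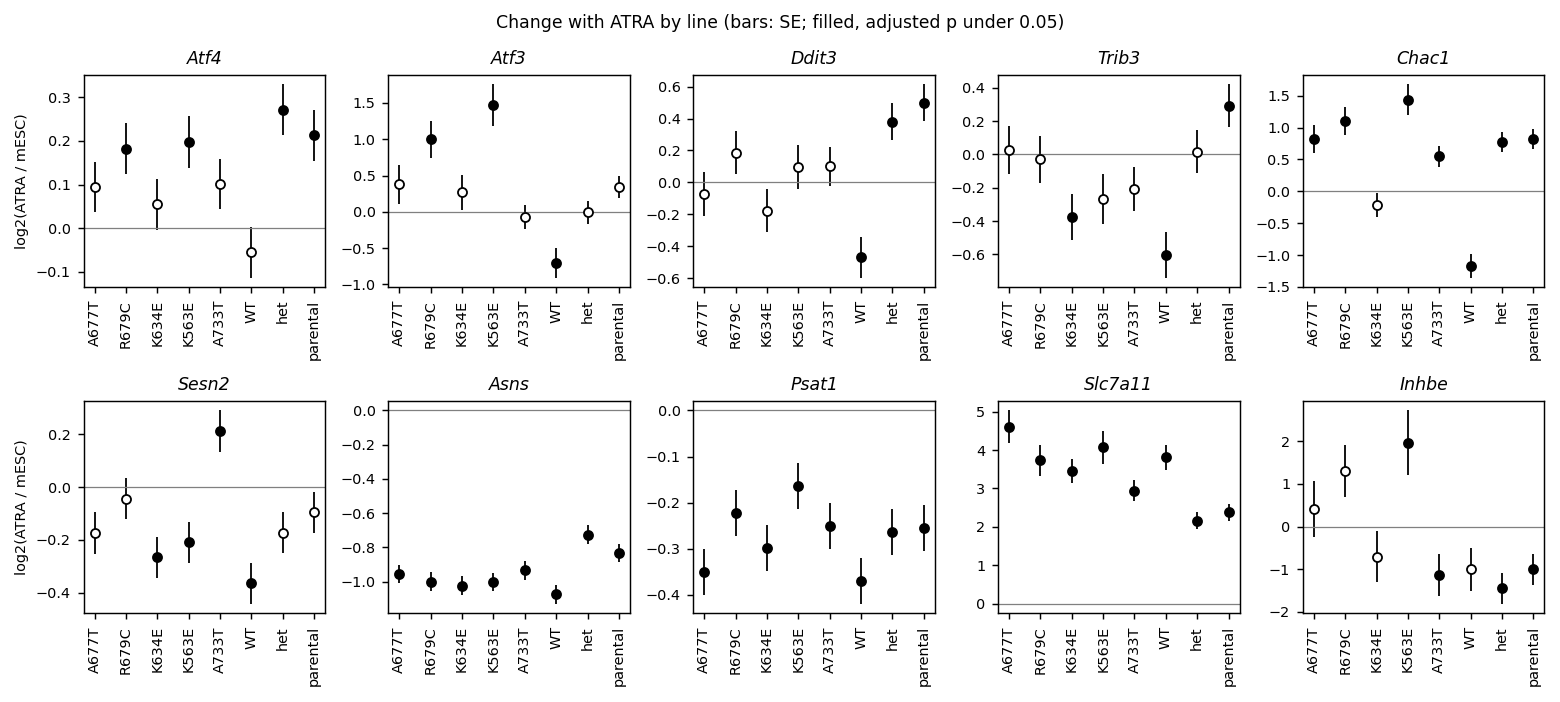
Log2 fold change with ATRA against mESC (y axis, SE bars, own scale per gene) in each of the 8 lines (x axis); filled points had an adjusted p under 0.05. Slc7a11 rises by 2.16 to 4.61 and Asns falls in every line, and WT stands at -1.17 for Chac1 where most other lines stand above 0. The 4.61, in A677T, rests on 1 to 3 counts per mESC library.

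Other genes of the pathway were followed through lists drawn from general knowledge, with earlier results of these data known. Lists are described by counts and medians, beside those of all genes. All list values are given only without GC correction, which changed the calls of Atf4 and Sesn2 in the 4 variants against WT in mESC. Small changes of list genes are uncertain to that extent. In mESC, the mean of the 4 variants against WT had 10 of 13 aminoacyl-tRNA synthetase genes, which charge tRNAs, called lower and 0 higher, with Cars (-0.46), Aars (-0.41) and Vars (-0.31) the most changed. All 13 genes of amino acid and one-carbon synthesis were called lower, with Gpt2 (-1.21), Pck2 (-1.14) and the mitochondrial folate enzyme Aldh1l2 (-1.002) in front and a list median of -0.58. Of 10 amino acid transporter genes 7 were lower, led by the glutamine carrier Slc1a5 (-0.65), and 1, Slc38a2, was higher (0.33). Of 18 other ATF4 and CHOP targets tested, 14 were lower, led by Jdp2 (-2.08), Vegfa (-1.54) and Vldlr (-1.50), and Rhoq was higher (0.33). The median over all genes was -0.005, and 22.9% of all genes were lower and 21.4% higher.

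The upstream machinery of the response, the eIF2 kinases, eIF2 and eIF2B subunits and phosphatase, had 4 of 18 genes higher, among them Nck1 (0.46) and Impact (0.36), and 1 lower, Eif2b5 (-0.49), with a median of 0.07. The ATF6 and XBP1 branch of the unfolded protein response, which raises endoplasmic reticulum chaperones, had 4 of 21 higher and 7 lower, with a median of -0.05. Herpud1 (-0.56) was among the lower ones and Dnajb9 (0.37) among the higher ones. NRF2 targets had 4 of 14 higher and 3 lower, the mitochondrial unfolded protein response 2 of 10 higher and 3 lower, and immediate early genes 2 of 11 higher and 5 lower. Targets of p53 ran the other way, with 11 of 19 higher, led by Pmaip1 (0.97) and Plk2 (0.80), and 2 lower. Bbc3 and Tnfrsf10b stand in the lists of both p53 and ATF4 or CHOP targets.

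After ATRA, the 4 variants against WT had 5 of 13 synthetase genes, 9 of 13 synthesis genes, 6 of 10 transporter genes and 7 of 19 other ATF4 and CHOP targets called lower, with 0, 0, 1 and 1 higher in that order (12.1% of all genes were lower and 8.43% higher). Pck2 (-1.11) and Vldlr (-1.04) fell most among them. The unfolded protein response list had 0 higher and 0 lower of 21, and p53 targets 13 of 19 higher. A733T against WT after ATRA had 7 of 13, 8 of 13, 4 of 10 and 11 of 19 higher in the same 4 lists and 0 lower in each, against 10.4% of all genes higher and 7.33% lower. Pck2 (1.499), Aldh1l2 (1.41) and Nupr1 (1.27) rose most. In mESC, A733T against WT had 6 of 13, 5 of 13, 1 of 10 and 8 of 18 higher in these lists, with 2, 0, 1 and 1 lower. Against parental mESC, the 4 variants had 11 of 13, 13 of 13, 8 of 10 and 15 of 18 lower, where 28.8% of all genes were.

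**Figure D5:**
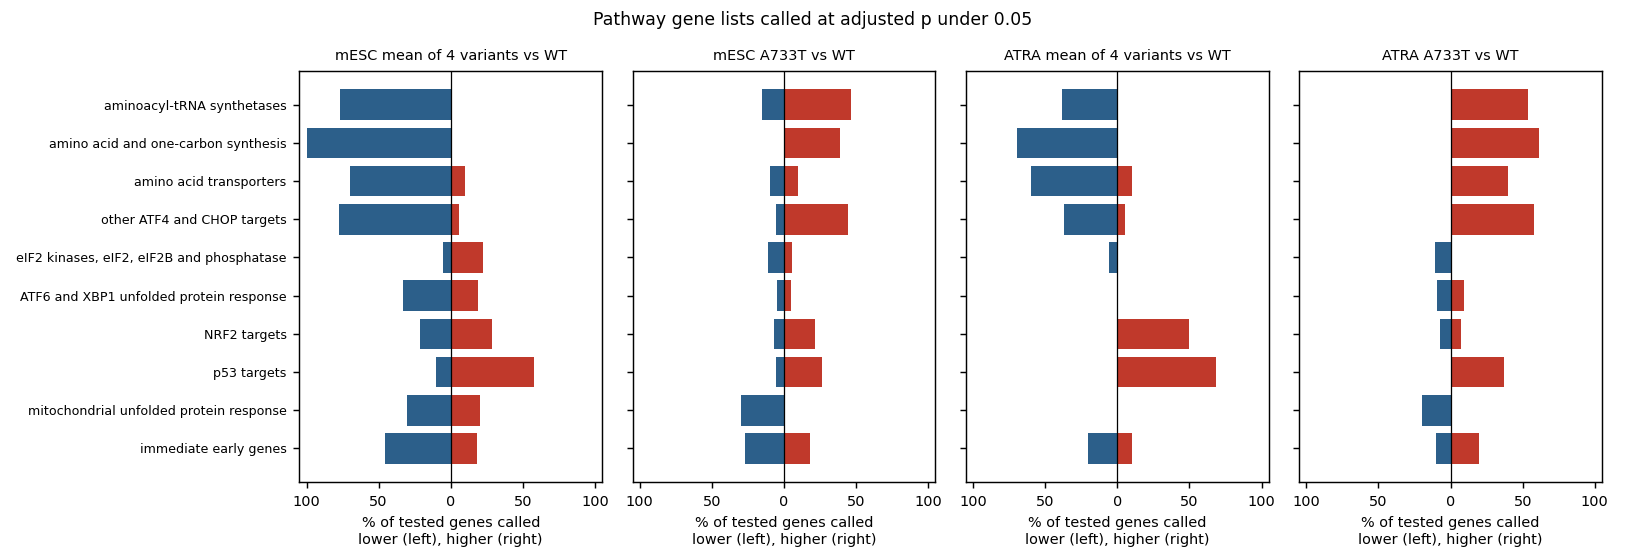
Share of tested genes (x axis, %) called lower (left, blue) and higher (right, red) in each gene list (y axis), for 4 comparisons with WT. In mESC all 13 amino acid and one-carbon synthesis genes are lower in the mean of the 4 variants, and p53 targets lie mostly to the right.

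Genes whose pattern over the 16 groups was most like that of the members were ranked by Pearson's r of log2 levels centred within each state, over 11991 genes. The 10 highest were Ddit4 (0.986), Cars (0.986), Slc1a5 (0.983), Vegfa (0.983), Herpud1 (0.982), Iars (0.982), Nupr1 (0.981), Aldh18a1 (0.981), Rhbdd1 (0.979) and Gpt2 (0.979). Of these, 9 are in the lists above, which hold 1.2% of the genes ranked. The lists were drawn with earlier results of these data known, so this share is a description. Ranked by Spearman's rho, 3 of the 10 were the same. The 10 by rho held Vegfa, Ddit4, Gpt2, Slc7a1 and Slc1a4 of these lists, beside Dclk2, Usp43, Ubap1l, St14 and Stat5b. Ddit4 averaged 107 CPM in A733T, 60.1 CPM in WT, 147 CPM in het and 184 CPM in parental cells after ATRA.

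Ezh2, the targeted gene, is listed for each line because its level moved with the members. In mESC it averaged 560 CPM in A677T, 489 CPM in R679C, 537 CPM in K634E, 514 CPM in K563E, 361 CPM in A733T, 439 CPM in WT, 281 CPM in het and 302 CPM in parental cells. After ATRA it averaged 415 CPM in A677T, 384 CPM in R679C, 421 CPM in K634E, 424 CPM in K563E, 275 CPM in A733T, 362 CPM in WT, 239 CPM in het and 279 CPM in parental cells. The 4 variants and WT had the higher Ezh2 levels and the lower members, and A733T, het and parental the reverse, with Pearson's r of -0.931 between log2 Ezh2 and the members' mean pattern over the 16 groups, both centred within state. Within these blocks the order of the means did not hold throughout. The mESC Ezh2 libraries of K634E (491.5 to 587.1 CPM) overlapped those of R679C (467.3 to 511.6 CPM) and K563E (494.8 to 536.6 CPM). Differences in Ezh2 between these lines were not tested. K634E had higher Ezh2 than R679C and K563E in mESC and also higher members (mean centred log2 level -0.23, against -0.90 in R679C and -1.09 in K563E), and A733T after ATRA had Ezh2 close to that of parental cells with lower members (0.50 in A733T, 1.11 in parental). Whether reads of the added EZH2 fall under Ezh2 in the table is not labelled, so these values need not measure EZH2 protein, and the part of the Ezh2 level in the members' values was not tested.

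Markers of the cell state were checked in every group. All 10 pluripotency markers were at or above 1 CPM in every group, and their summed level was 6172 to 7148 CPM in the 4 variants, 7483 to 7839 CPM in A733T, 7714 to 7875 CPM in WT, 7849 to 8271 CPM in het and 7606 to 8263 CPM in parental mESC. The sum was thus lower in the 4 variants, as were the stress genes in mESC, but single markers went both ways. Tfcp2l1 averaged 830.5 to 983 CPM in the 4 variants and 1323 CPM in parental mESC, and Dppa5a 965.1 to 1076 CPM and 1681 CPM. Nanog (805.8 to 891.5 CPM, against 752.9 CPM in parental mESC), Utf1 (206.9 to 275.9 CPM, against 134.5 CPM) and Sox2 (318.8 to 342.1 CPM, against 303.5 CPM) were higher instead. After ATRA it was 1860 to 2497 CPM in the 4 variants, 2306 to 2556 CPM in A733T, 2342 to 2595 CPM in WT, 2770 to 2952 CPM in het and 2782 to 3129 CPM in parental cells, again lower in the 4 variants than in het and parental. Retinoic acid response markers, 7 of 8 at 1 CPM or more in each line, summed after ATRA to 668 to 855 CPM in the 4 variants, 1029 to 1076 CPM in A733T, 808 to 916 CPM in WT, 841 to 853 CPM in het and 859 to 884 CPM in parental cells.

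Summed markers of other cell types also moved with some groups, though a single gene could make up most of a sum. Fibroblast or feeder markers (8 genes) summed to 19.1 to 25 CPM in A733T after ATRA and 8.77 to 12.4 CPM in WT, and in mESC to 1.71 to 4.37 CPM in the 4 variants, 13.2 to 15.8 CPM in A733T, 6.09 to 7.49 CPM in WT and 7.91 to 9.77 CPM in parental cells. Trophoblast markers (5 genes) summed after ATRA to 46.1 to 50.1 CPM in A733T and 15.5 to 17.9 CPM in WT, and in mESC to 49.4 to 61.9 CPM in the 4 variants and 37.7 to 41 CPM in WT. The mESC sums were 46.95 to 54.2 CPM in A733T, 51.33 to 58.15 CPM in het and 51 to 56.81 CPM in parental cells. In mESC the fibroblast marker Pdgfrb alone averaged 9.63 CPM in A733T and 4.88 CPM in WT. The trophoblast marker Tfap2c alone averaged 52.6 to 59.5 CPM in the 4 variants and 38.6 CPM in WT. It averaged 48.97 CPM in A733T, 53.66 CPM in het and 51.93 CPM in parental mESC, so WT was the lowest line. Primitive endoderm markers (6 genes) summed in mESC to 11.3 to 11.5 CPM in A733T and 3.95 to 5.15 CPM in WT, and after ATRA to 84.8 to 111.7 CPM in the 4 variants, 165.8 to 178.8 CPM in A733T, 179.5 to 180.1 CPM in WT and 115.4 to 129.9 CPM in parental cells. Markers of 2-cell-like cells (4 genes) summed after ATRA to 1.21 to 4.72 CPM in the 4 variants, 5.52 to 7.68 CPM in A733T, 3.27 to 4.24 CPM in WT, 0.856 to 1.07 CPM in het and 18.4 to 20.5 CPM in parental cells. Mitochondrial genes took 1.67% to 2.7% of counts in the 4 variants in mESC, 1.80% to 2.01% in A733T, 1.48% to 1.81% in WT, 1.63% to 1.95% in het and 1.62% to 1.85% in parental cells. The part of these markers and of mitochondrial RNA in the members' values was not tested, and in bulk RNA fewer cells that express a gene and less RNA per cell cannot be told apart.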

How the data were processed

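The authors deposited 1 table of raw counts of reads per gene, without normalisation, for 55401 Ensembl genes. The submitters' processing notes name mm10, DESeq2 1.38.3, featureCounts 1.6.4, STAR 2.7.3a and cutadapt 3.2, without role or order. Strandedness is not given in the sources used here. By the line, state and replicate in their names, 48 columns were assigned to samples. Another 6 fit no label and were not used, so Y728 cells were not analysed here. Symbols came from GENCODE M21 on GRCm38, where 54349 identifiers matched with their version, 792 without it and 260 did not match. Where 2 identifiers share a symbol (Ddit3), the longer gene model was used; the other had 0 counts.

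Testing used edgeR 4.0.16 in R 4.3.3 (filterByExpr, TMM, robust quasi-likelihood test). The 24 libraries of a state were fitted together, with a mean for each line (16 residual degrees of freedom), and changes with ATRA on all 48 (32 residual degrees of freedom). The filter left 15830 genes in mESC, 17030 in ATRA and 17683 in both together. P-values were adjusted by Benjamini-Hochberg across every gene in the comparison, and a gene was called under 0.05. The test was tried first on simulated counts with known changes. Alternatives were DESeq2 1.42.0, its size factors, no filter, a correction of each library for GC content, a replicate block, fits of only the groups compared, and each library left out in turn.

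The members and all gene lists were chosen with earlier results of these data known. List genes were named by rule, at most 3 per list and direction with the largest change among those called at 1 CPM or more. Genes like the members were the 10 with the highest Pearson correlation. The 48 pairs of replicates differed by more than counting error (chi-square per degree of freedom 2.81 to 39.5), so none were counted as duplicates.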

Additional observations from a re-analysis of the deposited data

Results flagged for a closer look

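The change with ATRA differed between lines for 4 of the 10 genes by a direct test of the difference (edgeR, adjusted over all genes). Between the mean of the 4 variants and WT, the log2 change of Chac1 differed by 1.95, that of Atf3 by 1.48 and that of Ddit3 by 0.48, against 4.54% of all genes in that direction. The Ddit3 call was lost with several single libraries left out, such as ATRA WT replicate 3 (0.35). Between A733T and WT, the log2 change of Chac1 differed by 1.72 and that of Sesn2 by 0.58, against 1.76% of all genes in that direction. Chac1 fell with ATRA in WT (-1.17) and was not called in K634E, while it rose in A677T (0.82), R679C (1.10), K563E (1.44) and A733T (0.55). The call in A733T was lost without its ATRA replicate 1 (0.35, adjusted p = 0.0873 in edgeR). All of these differences share the WT libraries, in which the Spearman correlation of a library's deviations with GC content was 0.146, 0.557 and -0.289 after ATRA and 0.503, 0.572 and 0.736 in mESC. The members were chosen mainly for lower levels in WT than in het. The differences from WT may thus be partly built in, and the shares of all genes are not equal references.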

How the results depend on the processing

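Among tests in which a member was called under the reported or the alternative setting, no direction turned with DESeq2, its size factors, no filter on low counts, a replicate block, fits of only the groups compared or any library left out. Members called under neither could change sign. With GC correction 8 values turned. Sesn2 in mESC against WT came to 0.29 in A677T, 0.22 in R679C, 0.27 in K634E, 0.25 in K563E and 0.26 in their mean, and in A733T against the 4 variants to -0.13. Atf4 came to 0.16 with ATRA in WT and to 0.002 in A677T against WT in mESC. The replicate numbers were not taken to pair the libraries, since the labels do not say that they do. Deviations of same-numbered libraries correlated over 0.1 in 40 of 84 pairs in mESC (-0.518 to 0.731) and 56 of 84 in ATRA (-0.355 to 0.706). Their median was 0.088 in mESC and 0.192 in ATRA, above the -0.056 and -0.094 of differently numbered libraries, a hint from the data and not from the design. With the replicate block and GC correction together the same 8 values were 0.29, 0.22, 0.27, 0.25, 0.26, -0.13, 0.16 and 0 in that order.

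Counts of members called changed by more than 1.5 times as follows, and the cause was not tested. In het against parental mESC, 1 member was called with DESeq2, its size factors, GC correction, the replicate block, both together or only the groups compared, against 0. The share of all genes called in these settings was 3.43% to 7.44%, against 3.44%. In het against parental after ATRA, 4 were called with GC correction, the replicate block, both together or only the groups compared, against 2, and 0 to 1 with a library left out. The share of all genes moved as well, to 8.77% to 12.2% and to 3.62% to 4.82% in that order, against 6.25%. For the difference between the 4 variants and WT in the change with ATRA, 5 were called with the replicate block or without mESC A677T replicate 3 and ATRA K634E replicate 3 together, against 3, and 2 to 6 with a library left out. Of all genes, 9.47% were called with the block and 9.48% without these libraries, against 7.07%. For ATRA in parental cells, 5 to 8 were called with a library left out, against 8. The 5 stood against 51.8% of all genes called, and the 8 against 55.2%. With a library left out, A733T against WT had 4 to 6 called in mESC and 7 to 9 after ATRA, and the 4 variants against WT 8 in mESC and 3 to 4 after ATRA. The 4 variants had 10 called against parental and against het in both states with any library left out. Slc7a11 (0 to 277 counts) and Inhbe (1 to 67 counts) are limited by depth.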
